A study of Mus musculus with 8 samples.

Results

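The 10 genes described here are widely used as markers of macrophages: Lyz2, Cd68, Csf1r, Adgre1, Marco, C1qa, C1qb, C1qc, Tyrobp and Fcer1g. They were taken by symbol from a table of 54532 genes, and each symbol was found once. The question they address is what trace of these marker transcripts was present in fibroblast cultures, and how it differed between media.

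Wild-type mouse embryonic fibroblasts (MEFs), cells cultured from mouse embryos, were profiled by RNA sequencing after 4 days in 1 of 4 media. CFAE+8 held CHIR99021 (a GSK-3 inhibitor), Forskolin (an adenylyl cyclase activator), AM580 (an agonist of retinoic acid receptor alpha), EPZ04777 as labelled (which blocks DOT1L, a histone methyltransferase) and A-83-01 (a TGF-beta type I receptor inhibitor). CFAE+8+MSC held the same agents with MSC2530818, an inhibitor of CDK8 and CDK19. CFAE+6 held the first 4 of those agents with E-616452, another TGF-beta type I receptor inhibitor, in place of A-83-01. The fourth group, MEF, was kept in fibroblast medium with none of these agents. Each group had 2 libraries. The labels give no doses and do not state that replicates are separate cultures. The p-values therefore reflect only how far these samples vary, and that variation may be technical.

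Macrophages are phagocytic cells of the immune system that take up and digest microbes, dead cells and debris. In the embryo they arise first from yolk sac precursors and settle in nearly every tissue, so a culture made from whole embryo tissue can carry some of them along with the fibroblasts. Their survival depends on the receptor encoded by Csf1r and its ligands, CSF1 and IL-34. CSF1 is made by fibroblasts, among other cells. In a bulk sample, fewer macrophages, less of a transcript per cell and altered expression in the fibroblasts themselves cannot be told apart. The cells from which the counts came were not identified.

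Library totals ran from 10958430 to 11913143 counts, so that 3 counts in 1 library correspond to 0.254 to 0.285 CPM, the level scale used here (counts scaled to library size). Replicates differed beyond counting noise in all 4 groups (chi-square per degree of freedom from 1.87 to 2.67 over genes), and no libraries were merged. Fibroblast markers were abundant in every library. Their summed level over 12 genes was 16400 CPM in both CFAE+8 libraries, 17000 and 17600 CPM in CFAE+8+MSC, 14600 and 15100 CPM in CFAE+6, and 43700 and 45200 CPM in MEF. Mitochondrial transcripts took 1.96% and 2.0% of counts in CFAE+8, 2.2% and 2.08% in CFAE+8+MSC, 2.21% and 2.08% in CFAE+6, and 1.24% and 1.21% in MEF. Both the fibroblast sum and the mitochondrial share moved with the media along which the macrophage genes differed, and their part in the results below was not tested. The common biological coefficient of variation was 0.0445.

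All 10 genes had counts in at least 1 group and passed the filter on low counts, together with 15470 genes in all. They were scarce. Over the 10 genes, 485 and 449 counts were found in the CFAE+8 libraries, 224 and 223 in CFAE+8+MSC, 217 and 180 in CFAE+6, and 1854 and 1895 in MEF. The summed level was 41.4 and 38.1 CPM in CFAE+8, 19.4 and 20.2 CPM in CFAE+8+MSC, 19.1 and 15.4 CPM in CFAE+6, and 176 and 174 CPM in MEF. Every cocktail library lay below both MEF libraries.

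**Figure D1:**
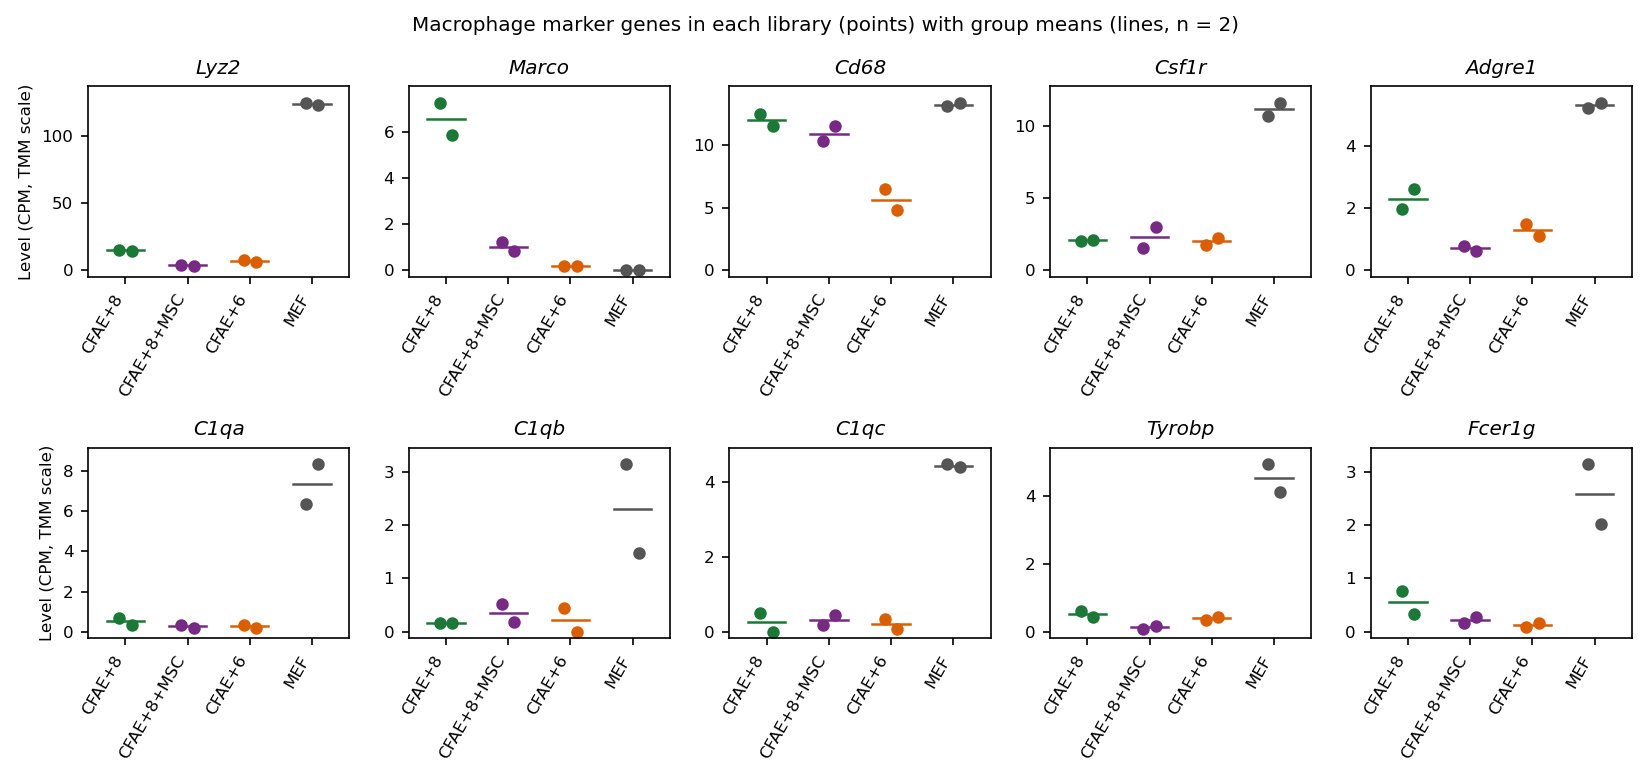
Level of each of the 10 macrophage marker genes in the 8 libraries, in CPM, 1 panel per gene. Points are libraries and lines are group means; 9 of the genes had their highest mean in MEF, and Marco had its highest mean in CFAE+8 and no counts in MEF.

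Against MEF the 10 genes followed 3 patterns. Lyz2, Csf1r, Adgre1, C1qa, C1qb, C1qc, Tyrobp and Fcer1g were lower in all 3 cocktails. Cd68 passed the test in CFAE+6 alone, where it was lower. Marco was higher in CFAE+8 and CFAE+8+MSC. The 10 genes thus did not move as 1 group, and Marco went against the others. At an adjusted p under 0.05 (edgeR, Benjamini-Hochberg over all genes tested), 8 of the 10 were lower and 1 was higher in CFAE+8, where 31.3% of all genes tested were called lower and 30.8% higher. In CFAE+8+MSC, 8 were lower and 1 was higher, against 32.2% and 31.9% of all genes. In CFAE+6, 9 were lower and 0 were higher, against 31.5% and 31.6% of all genes. In CFAE+6 the remaining gene, Marco, had an unadjusted p under 0.05, and it was called by edgeR with upper-quartile scaling or with library totals alone. With library totals alone in place of TMM factors, the median of all genes shifts by 0.17, 0.13 and 0.16 on the log2 scale in these 3 comparisons, and the share of higher genes among those called is 62.5%, 59.2% and 61.6%, beside 49.6%, 49.7% and 50.1%. The median log2 change of the 10 genes was -2.75 with CFAE+8, -3.23 with CFAE+8+MSC and -3.46 with CFAE+6, beside 0.01, 0.01 and 0.02 over all genes tested. Marco has no fitted change that can be read where MEF had 0 counts, but it is the highest of the 10 also at its bound, so the medians stay as given. The C1q chains, Tyrobp and Fcer1g passed the filter on low counts mainly through MEF and Marco mainly through CFAE+8, so these counts and medians describe the genes and support nothing further. The 3 comparisons share the MEF libraries.

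**Figure D2:**
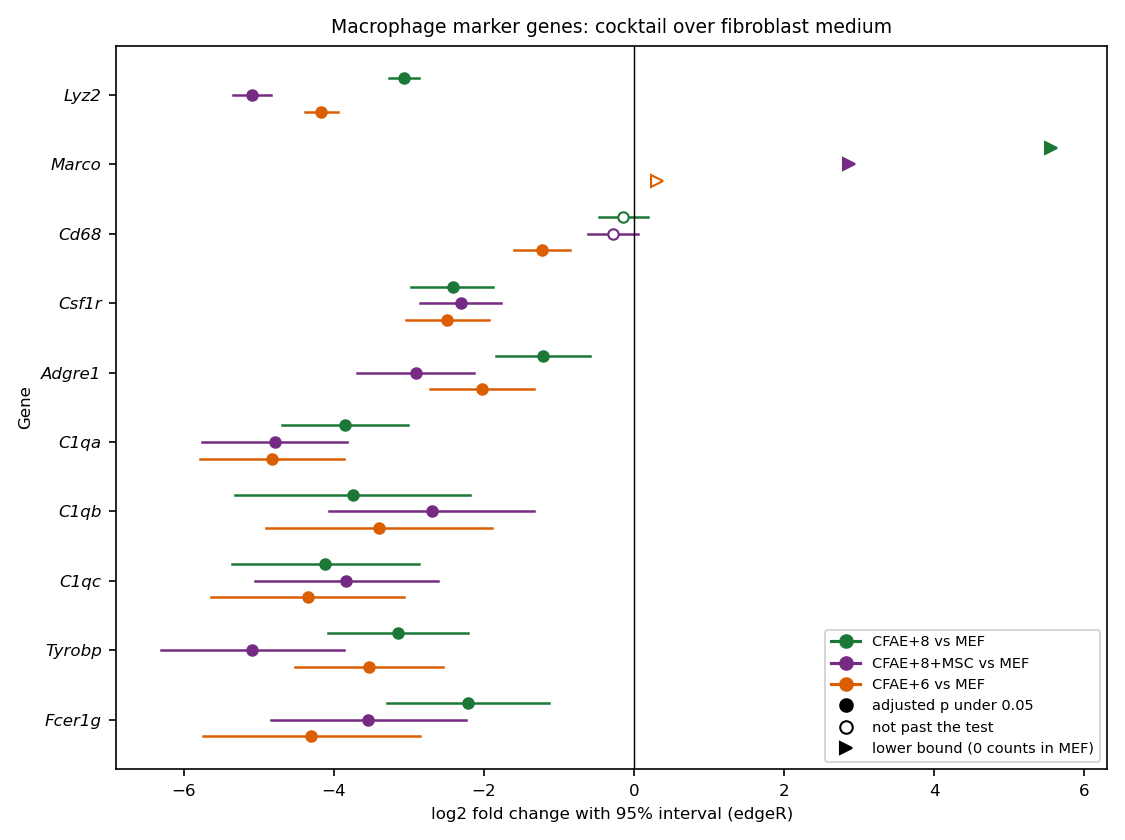
log2 fold change of each gene in CFAE+8, CFAE+8+MSC and CFAE+6 over MEF, with 95% intervals from edgeR. Filled symbols passed an adjusted p of 0.05. Triangles are lower bounds for Marco, which had 0 counts in MEF and whose cocktail counts are taken as exact. Lyz2 and Tyrobp reached -5.09 in CFAE+8+MSC, and the intervals of Cd68 in CFAE+8 and CFAE+8+MSC include 0.

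The promoters of 3 genes are printed, 1 from each pattern and not typical of it: Marco (higher), Cd68 (lower in 1 cocktail) and C1qb (lower in all). RefSeq promoter windows on GRCm38.p6 were matched for 6 of the 10 genes: these 3, Lyz2, C1qc and Fcer1g. Each line gives the 250 bases before the annotated start, read on the gene's strand, which is the minus strand for all 3: chr1:120505025-120505274 for Marco, chr11:69666171-69666420 for Cd68 and chr4:136886201-136886450 for C1qb. Capitals mark GAGGAA, the core bound by PU.1 (the transcription factor encoded by Spi1), and TGAGTCA, the AP-1 site.
Marco: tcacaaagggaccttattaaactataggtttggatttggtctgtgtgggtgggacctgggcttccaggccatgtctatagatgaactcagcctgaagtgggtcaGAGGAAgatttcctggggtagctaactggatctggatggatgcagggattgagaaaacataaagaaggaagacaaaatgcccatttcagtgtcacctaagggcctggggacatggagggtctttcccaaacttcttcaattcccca
Cd68: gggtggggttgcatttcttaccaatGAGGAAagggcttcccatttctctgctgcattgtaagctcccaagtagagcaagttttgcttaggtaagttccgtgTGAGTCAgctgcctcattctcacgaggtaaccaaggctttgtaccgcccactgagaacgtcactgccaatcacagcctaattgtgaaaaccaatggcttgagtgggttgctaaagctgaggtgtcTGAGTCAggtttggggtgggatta
C1qb: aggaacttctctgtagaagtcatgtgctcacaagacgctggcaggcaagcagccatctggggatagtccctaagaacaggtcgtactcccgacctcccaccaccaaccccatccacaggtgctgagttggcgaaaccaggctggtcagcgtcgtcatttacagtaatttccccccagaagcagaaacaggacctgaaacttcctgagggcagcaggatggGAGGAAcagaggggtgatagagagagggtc

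Both strands were searched, together with CACGTG, the E-box bound by the MITF and TFE factors, which was in none of these 3 windows. GAGGAA lay at -146 to -141 in Marco, -225 to -220 in Cd68 and -30 to -25 in C1qb. TGAGTCA lay at -149 to -143 and at -24 to -18 in Cd68. The motifs do not overlap. Of the windows not printed, those of Lyz2 and Fcer1g, also lower in all cocktails, held none of the 3 motifs, and that of C1qc held GAGGAA on the other strand, so the motifs were not shared by all genes of a pattern. Of 32817 RefSeq windows of 250 bases, 23.3% hold GAGGAA, 4.46% TGAGTCA and 6.02% CACGTG. The matches are letters in a window, and no binding was measured.

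Lyz2 encodes lysozyme, the enzyme that cleaves the bacterial cell wall and is abundant in macrophages and granulocytes (ENSMUSG00000069516, mm10 chromosome 10, 117277331 to 117282321, minus strand). It had 175 and 173 counts in CFAE+8, 49 and 33 in CFAE+8+MSC, 86 and 73 in CFAE+6, and 1316 and 1341 in MEF. The 4 groups did not overlap. The mean level was 14.8 ± 0.188 CPM in CFAE+8, 3.61 ± 0.89 CPM in CFAE+8+MSC, 6.91 ± 0.942 CPM in CFAE+6 and 124 ± 1.58 CPM in MEF (SD, n = 2 each). Against MEF, Lyz2 was 8.37-fold lower in CFAE+8 (log2 change -3.07 ± 0.10 SE, edgeR adjusted p = 1.16e-21), 34.2-fold lower in CFAE+8+MSC (-5.09 ± 0.13, adjusted p = 1.96e-24) and 17.9-fold lower in CFAE+6 (-4.17 ± 0.11, adjusted p = 1.49e-23). Of the sequence of Lyz2, 15.4% of all stretches of 50 bases are also in Lyz1, its neighbour and near copy, which had 0 counts in all 8 libraries.

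Lyz2 set most of the summed level in MEF. It gave 36.1% and 38.5% of the counts of the 10 genes in CFAE+8, 21.9% and 14.8% in CFAE+8+MSC, 39.6% and 40.6% in CFAE+6, and 71.0% and 70.8% in MEF. Without it the sum was 26.5 and 23.4 CPM in CFAE+8, 15.2 and 17.2 CPM in CFAE+8+MSC, 11.5 and 9.16 CPM in CFAE+6, and 51.1 and 50.7 CPM in MEF. Every cocktail library was below MEF in that sum too.

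Cd68 encodes a glycoprotein of late endosomes and lysosomes, abundant in macrophages and found at lower levels in other cells (ENSMUSG00000018774, chromosome 11, 69664213 to 69666153, minus strand). It had 146 and 136 counts in CFAE+8, 119 and 127 in CFAE+8+MSC, 74 and 56 in CFAE+6, and 138 and 146 in MEF. Its mean level was 12.0 ± 0.656 CPM in CFAE+8, 10.9 ± 0.834 CPM in CFAE+8+MSC, 5.66 ± 1.22 CPM in CFAE+6 and 13.2 ± 0.183 CPM in MEF (SD, n = 2 each). Only CFAE+6 differed from MEF by the test, with a log2 change of -1.23 ± 0.18 (edgeR adjusted p = 9.46e-07). In CFAE+8 the change was -0.14 (95% interval -0.48 to 0.19, adjusted p = 0.461), with a value of 0.03 when libraries were scaled by their totals alone. In CFAE+8+MSC it was -0.28 (interval -0.62 to 0.06, adjusted p = 0.137). Cd68 and Lyz2 were thus both highest in MEF by their means but differed in how far the cocktails lay below it: Cd68 in CFAE+8 was at 90.6% of its MEF level, and Lyz2 at 11.9%.

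The make-up of the 10-gene sum differed between media. Cd68 took 30.1% and 30.3% of those counts in CFAE+8, 53.1% and 57.0% in CFAE+8+MSC, 34.1% and 31.1% in CFAE+6, and 7.44% and 7.7% in MEF. Marco took 17.5% and 15.4% in CFAE+8, 6.25% and 4.04% in CFAE+8+MSC, 0.922% and 1.11% in CFAE+6, and 0% in both MEF libraries. The 7 genes other than Lyz2, Cd68 and Marco summed to 6.74 and 6.02 CPM in CFAE+8, 3.64 and 4.88 CPM in CFAE+8+MSC, 4.85 and 4.19 CPM in CFAE+6, and 38.0 and 37.4 CPM in MEF.

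**Figure D3:**
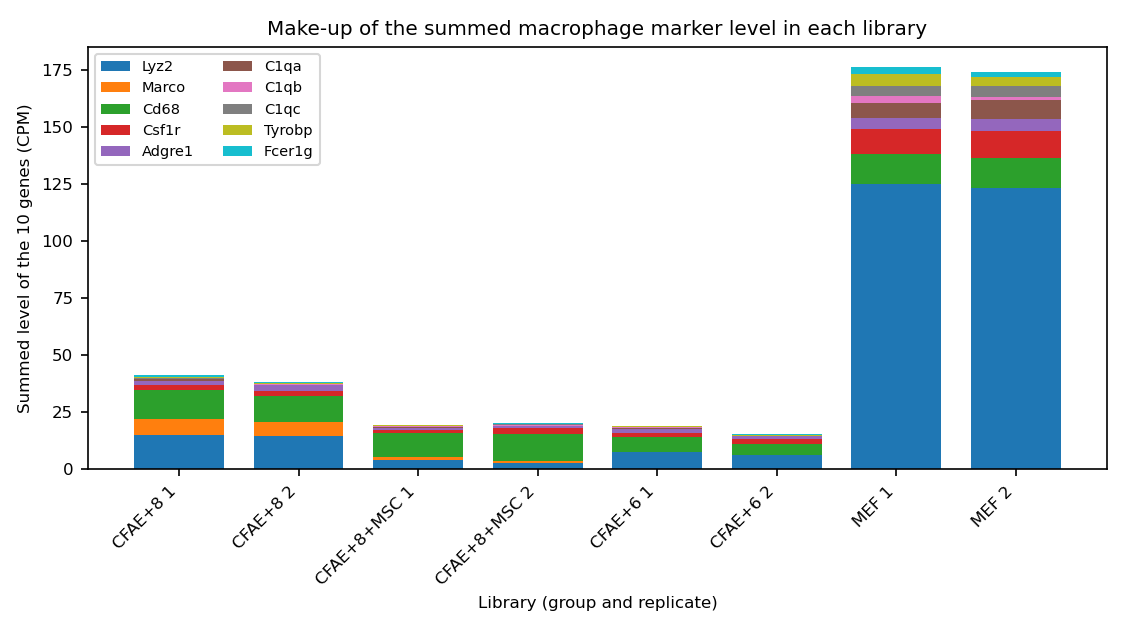
Summed level of the 10 genes in each library, in CPM, as stacked bars with 1 colour per gene. The MEF bars reach 176 and 174 CPM and are mostly Lyz2; the tallest cocktail bar is CFAE+8 at 41.4 CPM, where Lyz2, Cd68 and Marco make up most of the sum.

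Among the receptors, Csf1r encodes the tyrosine kinase receptor for CSF1 and IL-34 (ENSMUSG00000024621, chromosome 18, 61105572 to 61132149, plus strand). Its exons overlap those of Hmgxb3 over 15.1% of their length, and the counting did not separate strands as far as the sources show, so its values are uncertain. Hmgxb3 had 643 to 856 counts per library. Csf1r had 24 and 25 counts in CFAE+8, 18 and 33 in CFAE+8+MSC, 20 and 26 in CFAE+6, and 113 and 127 in MEF. The cocktail libraries overlapped one another and all lay below MEF. Its level was 2.08 ± 0.0507 CPM in CFAE+8, 2.27 ± 1.01 CPM in CFAE+8+MSC, 1.99 ± 0.327 CPM in CFAE+6 and 11.2 ± 0.632 CPM in MEF (SD, n = 2 each), with log2 changes against MEF of -2.42 ± 0.27, -2.31 ± 0.26 and -2.49 ± 0.27 (edgeR adjusted p = 4.14e-09, 9.35e-09 and 3.09e-09).

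Adgre1 encodes F4/80, the adhesion receptor by which mouse macrophages are commonly stained (ENSMUSG00000004730, chromosome 17, 57358691 to 57483527, plus strand). It had 23 and 31 counts in CFAE+8, 9 and 7 in CFAE+8+MSC, 17 and 13 in CFAE+6, and 55 and 59 in MEF. No 2 groups overlapped, a common state over all genes tested, as the shares given above show. Its level was 2.30 ± 0.471 CPM in CFAE+8, 0.706 ± 0.104 CPM in CFAE+8+MSC, 1.31 ± 0.273 CPM in CFAE+6 and 5.32 ± 0.126 CPM in MEF (SD, n = 2 each). Against MEF the log2 change was -1.21 ± 0.31 in CFAE+8 (edgeR adjusted p = 0.00112), -2.91 ± 0.38 in CFAE+8+MSC (1.18e-07) and -2.03 ± 0.34 in CFAE+6 (6.48e-06).

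Marco encodes a class A scavenger receptor that binds bacteria and particles on some macrophage populations (ENSMUSG00000026390, chromosome 1, 120474538 to 120505024, minus strand). It had 85 and 69 counts in CFAE+8, 14 and 9 in CFAE+8+MSC, 2 and 2 in CFAE+6, and 0 in both MEF libraries. Its order across the media was unlike that of the other 9 genes: CFAE+8 was highest and MEF lowest. The level was 6.55 ± 0.993 CPM in CFAE+8, 1.01 ± 0.282 CPM in CFAE+8+MSC and 0.174 ± 0.00362 CPM in CFAE+6 (SD, n = 2 each), while 0 counts in MEF allow up to 0.14 CPM (3 counts over the group's 2 libraries). Against that floor, with the cocktail counts taken as exact, Marco was at least 46.8-fold higher in CFAE+8 (edgeR adjusted p = 7.03e-11). It was at least 7.27-fold higher in CFAE+8+MSC (adjusted p = 4.65e-05). In CFAE+6 the value computed so was 1.24-fold, but it rested on 2 counts in each library, and the test was not passed (adjusted p = 0.0525).

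The C1q genes encode the A, B and C chains of complement component C1q, the recognition molecule of the classical pathway, which tissue macrophages secrete. They lie side by side on chromosome 4, all on the minus strand: C1qb at 136880129 to 136886187 (ENSMUSG00000036905), C1qc at 136889804 to 136893065 (ENSMUSG00000036896) and C1qa at 136895917 to 136898803 (ENSMUSG00000036887). C1qa had 8 and 4 counts in CFAE+8, 4 and 2 in CFAE+8+MSC, 4 and 2 in CFAE+6, and 67 and 91 in MEF. C1qb had 2 and 2 counts in CFAE+8, 6 and 2 in CFAE+8+MSC, 5 and 0 in CFAE+6, and 33 and 16 in MEF. C1qc had 6 and 0 counts in CFAE+8, 2 and 5 in CFAE+8+MSC, 4 and 1 in CFAE+6, and 47 and 48 in MEF. All 3 genes were therefore near the counting floor in every cocktail and clearly counted in MEF.

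C1qa averaged 0.511 ± 0.243 CPM in CFAE+8, 0.264 ± 0.117 CPM in CFAE+8+MSC, 0.262 ± 0.128 CPM in CFAE+6 and 7.35 ± 1.39 CPM in MEF (SD, n = 2 each). Its log2 changes against MEF were -3.85 ± 0.41, -4.79 ± 0.47 and -4.82 ± 0.47 in that order of cocktails (edgeR adjusted p = 2.51e-09, 4.27e-10 and 3.73e-10). C1qc averaged 4.43 ± 0.0494 CPM in MEF and was lower by log2 changes of -4.12 ± 0.61, -3.84 ± 0.59 and -4.35 ± 0.63 (adjusted p = 9.45e-07, 1.82e-06 and 6.78e-07). C1qb was the most variable of the 3 in MEF, at 2.30 ± 1.18 CPM. Its changes were -3.75 ± 0.76, -2.70 ± 0.67 and -3.40 ± 0.73 (adjusted p = 9.91e-05, 0.000819 and 0.000186), and the call in CFAE+8+MSC was lost without MEF replicate 1 (adjusted p = 0.0633).

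Summed over the 3 chains, there were 16 and 6 counts in CFAE+8, 12 and 9 in CFAE+8+MSC, 13 and 3 in CFAE+6, and 147 and 155 in MEF. C1qa gave 54.5% of these counts over the CFAE+8 libraries (exact 95% interval 32.2% to 75.6%), 28.6% in CFAE+8+MSC (11.3% to 52.2%), 37.5% in CFAE+6 (15.2% to 64.6%) and 52.3% in MEF (46.5% to 58.1%). C1qb gave 18.2% in CFAE+8 (5.19% to 40.3%), 38.1% in CFAE+8+MSC (18.1% to 61.6%), 31.2% in CFAE+6 (11% to 58.7%) and 16.2% in MEF (12.3% to 20.9%). C1qc gave 27.3% in CFAE+8, 33.3% in CFAE+8+MSC, 31.2% in CFAE+6 and 31.5% in MEF. For each chain the interval of every cocktail, which rests on 16 to 22 counts, overlapped that of MEF. The split was not tested, and the intervals cover counting error only.

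Tyrobp and Fcer1g encode the small adaptors DAP12 and FcR gamma chain, whose ITAM motifs pass signals from receptors such as TREM2 and the activating Fc receptors to the kinase SYK. Tyrobp (ENSMUSG00000030579, chromosome 7, 30413760 to 30417585, plus strand) had 7 and 5 counts in CFAE+8, 1 and 2 in CFAE+8+MSC, 4 and 5 in CFAE+6, and 52 and 45 in MEF. Fcer1g (ENSMUSG00000058715, chromosome 1, 171229572 to 171234365, minus strand) had 9 and 4 counts in CFAE+8, 2 and 3 in CFAE+8+MSC, 1 and 2 in CFAE+6, and 33 and 22 in MEF. For both genes each MEF library was above every cocktail library.

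Tyrobp averaged 0.511 ± 0.123 CPM in CFAE+8, 0.134 ± 0.0667 CPM in CFAE+8+MSC, 0.39 ± 0.0533 CPM in CFAE+6 and 4.53 ± 0.58 CPM in MEF (SD, n = 2 each). Its log2 change against MEF was -3.15 ± 0.46 in CFAE+8 (edgeR adjusted p = 6.52e-07) and -3.53 ± 0.48 in CFAE+6 (2.27e-07). With 3 counts in CFAE+8+MSC, it was 34.1-fold lower than in MEF, with an exact counting interval of 11.3 to 168 (adjusted p = 1.39e-08). Fcer1g averaged 0.554 ± 0.303 CPM in CFAE+8, 0.222 ± 0.0694 CPM in CFAE+8+MSC, 0.13 ± 0.0587 CPM in CFAE+6 and 2.58 ± 0.793 CPM in MEF. It changed by -2.22 ± 0.52 in CFAE+8 (adjusted p = 0.000546) and by -3.54 ± 0.64 in CFAE+8+MSC (1.76e-05). With 3 counts in CFAE+6, it was 19.7-fold lower than in MEF, with an interval of 6.39 to 98.4 (adjusted p = 4.54e-06).

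Compared per length, in TPM (a level scaled by gene length, computed from the deposited lengths), Lyz2 was the most abundant of the 10 genes in MEF at 303 TPM. Cd68 followed at 33.9 TPM, C1qa at 22.8 TPM and Tyrobp at 21.9 TPM. Fcer1g, C1qc, Csf1r, C1qb and Adgre1 lay between 5.29 and 9.49 TPM, and Marco was at 0. In CFAE+8 the order began with Lyz2 at 39.3 TPM, Cd68 at 33.4 TPM and Marco at 11.9 TPM, and the other 7 genes were at 0.462 to 2.67 TPM. In CFAE+8+MSC Cd68 came first, at 29.3 TPM against 9.3 TPM for Lyz2.

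Between CFAE+8+MSC and CFAE+8, which differ by MSC2530818, 3 of the 10 genes were lower and 0 were higher with the CDK8 and CDK19 inhibitor, where 13.8% of all genes tested were called lower and 15.6% higher. The 3 were Lyz2 (4.08-fold lower, log2 change -2.03 ± 0.17, edgeR adjusted p = 6.14e-11), Marco (6.45-fold lower, -2.69 ± 0.36, adjusted p = 1.06e-06) and Adgre1 (3.25-fold lower, -1.70 ± 0.43, adjusted p = 0.00303). The Adgre1 call was lost without CFAE+8 replicate 2 (adjusted p = 0.0503). For the other 7 the test was not passed. Csf1r differed by 0.12 (95% interval -0.57 to 0.81, adjusted p = 0.839) and Cd68 by -0.14 (-0.48 to 0.20, adjusted p = 0.579). Tyrobp had 3 counts against 12, a ratio of 3.85-fold lower with a counting interval of 1.04 to 21.2, but its adjusted p was 0.103. C1qa, C1qb, C1qc and Fcer1g had intervals from -3.03 at the lowest to 3.30 at the highest. The median of the 10 log2 changes was -1.13, beside -0.00446 over all genes.

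Between CFAE+6 and CFAE+8, which differ in the TGF-beta receptor inhibitor, 3 of the 10 genes were lower and 0 were higher with E-616452 than with A-83-01, where 12.3% of all genes were called lower and 14.3% higher. The doses of both inhibitors are not given, so a difference between the compounds and a difference in dose cannot be told apart. Marco had 4 counts in CFAE+6 against 154 in CFAE+8 and was 37.7-fold lower (log2 change -5.24 ± 0.50, edgeR adjusted p = 3.33e-09). Lyz2 was 2.14-fold lower (-1.10 ± 0.14, adjusted p = 7.24e-07) and Cd68 was 2.12-fold lower (-1.09 ± 0.18, adjusted p = 3.3e-05). Adgre1 differed by -0.82 (95% interval -1.59 to -0.04, adjusted p = 0.115) and Csf1r by -0.06 (-0.77 to 0.64, adjusted p = 0.922). Fcer1g, with 3 counts in CFAE+6 against 13 in CFAE+8, had a ratio of 4.25-fold lower (interval 1.17 to 23.2) and an adjusted p of 0.103. The median of the 10 changes was -0.89, beside 0.000883 over all genes.

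Between CFAE+8+MSC and CFAE+6, Marco and Cd68 were higher and Lyz2 was lower in CFAE+8+MSC, so 2 of the 10 genes were called higher and 1 lower, against 6.21% and 4.27% of all genes. Marco had 23 counts against 4 (5.85-fold higher, log2 change 2.55 ± 0.71, edgeR adjusted p = 0.0181), a call that was lost without CFAE+8+MSC replicate 1, CFAE+6 replicate 1 or CFAE+6 replicate 2 (adjusted p = 0.155, 0.0801 and 0.113). Cd68 was 1.93-fold higher (0.95 ± 0.19, adjusted p = 0.000756). Lyz2 was 1.90-fold lower (-0.93 ± 0.20, adjusted p = 0.00153), and its call was lost without CFAE+8+MSC replicate 2 (adjusted p = 0.0549). The median of the 10 changes was 0.35, beside -0.00417 over all genes.

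**Figure D4:**
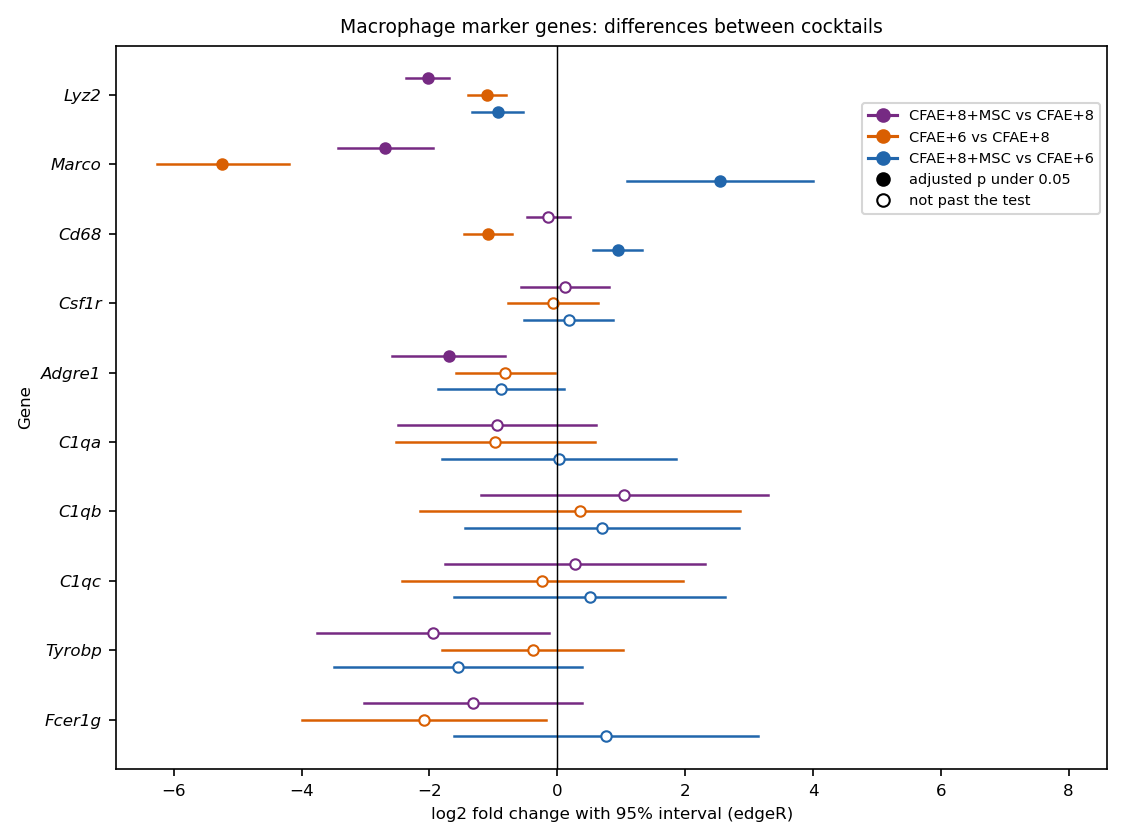
log2 fold change of each gene between cocktails, with 95% intervals from edgeR; filled circles passed an adjusted p of 0.05. Lyz2, Marco, Cd68 and Adgre1 hold the 9 filled circles, and the intervals of the C1q chains span more than 3 log2 units.

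The order of the media thus differed by gene. For Lyz2 it ran MEF, CFAE+8, CFAE+6, CFAE+8+MSC from high to low, and each neighbouring pair differed by the test. For Marco it ran CFAE+8, CFAE+8+MSC, CFAE+6, MEF, with the last pair not told apart. For Cd68, MEF, CFAE+8 and CFAE+8+MSC were not told apart and CFAE+6 was lowest. For Adgre1, MEF was above CFAE+8, and CFAE+8 was above CFAE+8+MSC (edgeR adjusted p = 0.00303, lost without CFAE+8 replicate 2). Neither CFAE+6 against CFAE+8 nor CFAE+8+MSC against CFAE+6 passed the test for Adgre1. For Csf1r, the C1q chains, Tyrobp and Fcer1g, MEF stood above the cocktails and no pair of cocktails passed the test.

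The genes nearest to Csf1r in pattern, by the root mean square difference of centred log2 CPM over the 8 libraries among 15143 genes, were Lyn (0.116), Cep295nl (0.158), Sept4 (0.159), Sdc4 (0.184) and Rflnb (0.204). Lyn, a SRC family kinase of blood cells, had 4.08 ± 0.342 CPM in CFAE+8, 3.96 ± 1.18 CPM in CFAE+8+MSC, 3.82 ± 0.412 CPM in CFAE+6 and 18.4 ± 0.0824 CPM in MEF (SD, n = 2 each). The nearest to Lyz2 were Fgf10 (0.299), C1s1 (0.324), Hk3 (0.346), Gbp2 (0.366) and Vcam1 (0.405). Fgf10, a secreted growth factor made by mesenchymal cells, had 3.79 ± 0.0429, 1.54 ± 0.641 and 2.74 ± 0.118 CPM in the 3 cocktails in the same order and 46.0 ± 1.39 CPM in MEF.

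Marco had no close neighbour: its nearest were Gm2682 (0.874), Cxcl2 (0.881), Gm11670 (0.961), Mmp10 (1.01) and Arrb1 (1.09). Cxcl2, a chemokine that attracts neutrophils, had 2.68 ± 0.048 CPM in CFAE+8, 1.64 ± 0.0125 CPM in CFAE+8+MSC, 0.218 ± 0.0659 CPM in CFAE+6 and 0.188 ± 0.137 CPM in MEF. Mmp10, a secreted metalloproteinase, had 49.1 ± 0.886 CPM in CFAE+8, 25.8 ± 4.34 CPM in CFAE+8+MSC, 18.0 ± 0.731 CPM in CFAE+6 and 2.84 ± 0.256 CPM in MEF. Within the 10 genes, the closest pair was Csf1r and Fcer1g (0.541), and Marco was 3.29 from Lyz2.

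Other genes of macrophages and myeloid cells were lower in the cocktails too, and not uniformly. Of 40 such genes, 29 were tested. In CFAE+8, 19 of these were lower, 3 were higher and 7 were not called against MEF, where 31.3% of all genes were called lower and 30.8% higher. In CFAE+8+MSC the counts were 22, 2 and 5, against 32.2% lower and 31.9% higher of all genes. In CFAE+6 they were 21, 3 and 5, against 31.5% and 31.6%. The median log2 change of the 29 genes was -2.30 with CFAE+8, -2.31 with CFAE+8+MSC and -2.10 with CFAE+6. Mpeg1, a pore-forming protein of macrophages, had 6 and 5 counts in CFAE+8, 13 and 7 in CFAE+8+MSC, 2 and 0 in CFAE+6, and 181 and 218 in MEF. Ctss, the protease cathepsin S, changed by -4.83 ± 0.32 in CFAE+8 (edgeR adjusted p = 8.93e-14), and Laptm5, a lysosomal membrane protein of blood cells, by -3.13 ± 0.22 (adjusted p = 4.13e-13). Mertk, a receptor for the uptake of dead cells, did not pass in CFAE+8 (0.03 ± 0.14, adjusted p = 0.871).

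Chosen after their values were seen, Ptprc, which encodes the CD45 phosphatase of all blood cells, had 3 and 1 counts in CFAE+8, 3 and 0 in CFAE+8+MSC, 1 and 1 in CFAE+6, and 35 and 31 in MEF. Its log2 change was -4.18 ± 0.66 in CFAE+8 (edgeR adjusted p = 2.73e-06). Also chosen so, Pf4, a chemokine of platelets and some macrophages, had 53 and 63 counts in CFAE+8, 9 and 11 in CFAE+8+MSC, 18 and 16 in CFAE+6, and 4 and 5 in MEF. Pf4 was higher in CFAE+8 than in MEF (3.56 ± 0.44, adjusted p = 3.62e-08), as Marco was, while Ptprc went with the other 8.

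Of the ligands of the CSF1 receptor, Csf1 had 1407 and 1410 counts in CFAE+8, 703 and 622 in CFAE+8+MSC, 728 and 784 in CFAE+6, and 3927 and 4170 in MEF. It was lower in every cocktail, with log2 changes of -1.66 ± 0.05, -2.69 ± 0.06 and -2.52 ± 0.06 (edgeR adjusted p = 3.35e-21, 1.59e-25 and 4.93e-25). Il34 had 80 and 83 counts in CFAE+8, 82 and 83 in CFAE+8+MSC, 70 and 66 in CFAE+6, and 43 and 37 in MEF, and was higher in every cocktail (0.89 ± 0.22, 0.97 ± 0.22 and 0.66 ± 0.23, adjusted p = 0.00102, 0.00042 and 0.0138). The ligands thus differed in direction, with Csf1 the more abundant in each library. Csf2, for another myeloid growth factor, was not counted in any library, and Csf3 had at most 4 counts in a library.

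Among 11 tested transcription factors of the macrophage lineage, 7 were lower and 4 higher in CFAE+8 than in MEF, where 31.3% of all genes were called lower and 30.8% higher. In CFAE+8+MSC 7 were lower and 4 higher, against 32.2% and 31.9% of all genes. In CFAE+6 5 were lower, 3 higher and 3 not called, against 31.5% lower and 31.6% higher of all genes. Spi1, chosen after its values were seen because it encodes PU.1, had 3 and 4 counts in CFAE+8, 4 and 4 in CFAE+8+MSC, 6 and 7 in CFAE+6, and 43 and 38 in MEF. It was lower by log2 changes of -3.67 ± 0.52, -3.42 ± 0.50 and -2.74 ± 0.46 (edgeR adjusted p = 4.02e-07, 8.51e-07 and 6.31e-06). Id3, Runx1 and Maf, which other cells also express, had at least 266 counts in each library. Id3 was higher in CFAE+8 (1.00 ± 0.05, adjusted p = 3.67e-17), and Runx1 too (0.48 ± 0.06, adjusted p = 8.47e-08), while Maf was lower (-1.32 ± 0.10, adjusted p = 1.06e-12).

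Of 15 listed partners of the ITAM adaptors, 9 were tested, and 9 were called lower with CFAE+8, 8 with CFAE+8+MSC and 9 with CFAE+6, where 31.3%, 32.2% and 31.5% of all genes were called lower. Some of the 9, such as Trem2, were counted mainly in MEF and passed the filter through that group, so the same limit holds for this list and the other lists of blood cell genes. Syk, the kinase recruited by ITAM motifs, had 68 and 62 counts in CFAE+8, 42 and 30 in CFAE+8+MSC, 30 and 34 in CFAE+6, and 156 and 157 in MEF. It was lower than in MEF in all 3 (log2 changes -1.40 ± 0.19, -2.20 ± 0.21 and -2.39 ± 0.22, edgeR adjusted p = 2.35e-07, 2.52e-10 and 6.32e-11). Trem2, a lipid receptor that signals through DAP12, had 2 and 5 counts in CFAE+8, 0 and 1 in CFAE+8+MSC, 1 and 4 in CFAE+6, and 68 and 63 in MEF.

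Other complement genes gave 6 lower and 1 higher of 9 tested in CFAE+8. Serping1, the C1 inhibitor, fell to 4.93 ± 0.82 CPM in CFAE+8, against 60.3 ± 0.645 CPM in MEF (log2 change -3.61 ± 0.15, edgeR adjusted p = 4.14e-19). The counts were 7 lower and 1 higher in CFAE+8+MSC and 6 lower and 2 higher in CFAE+6. Among 12 tested scavenger receptors, 7 were lower and 5 higher in CFAE+8, 8 were lower and 3 higher in CFAE+8+MSC, and 7 were lower, 2 higher and 3 not called in CFAE+6. The shares of all genes called in CFAE+8, 31.3% lower and 30.8% higher, are the background for both lists there. They were 32.2% and 31.9% in CFAE+8+MSC, and 31.5% and 31.6% in CFAE+6. Msr1, another class A scavenger receptor, chosen after its values were seen, had 17 and 12 counts in CFAE+8, 1 and 4 in CFAE+8+MSC, 3 and 2 in CFAE+6, and 108 and 115 in MEF, so that it differed from MEF in the opposite direction to Marco (-3.08 ± 0.31 in CFAE+8, adjusted p = 8.39e-10). Within the cocktails both were highest in CFAE+8.

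Lysosomal genes that most cells express give a setting for Cd68. Of 16 tested, 13 were lower and 3 higher in each cocktail, against 31.3% lower and 30.8% higher of all genes in CFAE+8, with medians of -1.08 with CFAE+8, -1.15 with CFAE+8+MSC and -1.15 with CFAE+6. Lamp1, a lysosomal membrane protein, changed by -1.22 ± 0.04 in CFAE+8 (edgeR adjusted p = 2.92e-21) and Ctsb, the protease cathepsin B, by 0.71 ± 0.03 (adjusted p = 3.66e-17). Of the 12 fibroblast markers, 9 were lower and 3 higher in each cocktail. The shares of all genes in CFAE+8 are the background for both lists there. They were 32.2% lower and 31.9% higher in CFAE+8+MSC, and 31.5% and 31.6% in CFAE+6. Col1a1, a collagen chain, changed by -1.86 ± 0.04 in CFAE+8 (adjusted p = 4.32e-27).

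**Figure D5:**
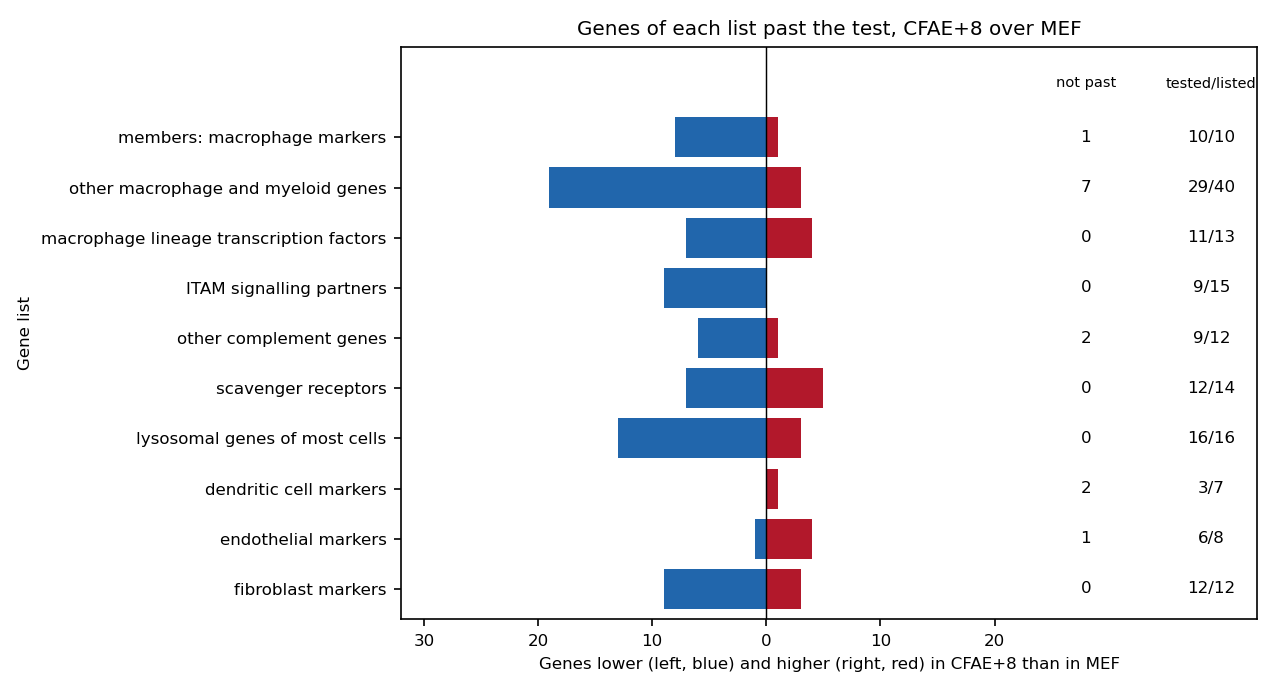
Number of genes called lower (blue, left) and higher (red, right) in CFAE+8 than in MEF for the 10 macrophage markers and 9 other lists, with the numbers not past the test and tested of listed at the right. The 9 tested ITAM signalling partners were called lower, while scavenger receptors had 7 lower and 5 higher. Of all genes tested, 31.3% were called lower and 30.8% higher.

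Markers of other blood cells had few counts, at levels not always below those of the scarcer macrophage markers. Over 8 neutrophil markers the counts were 2 and 2 in CFAE+8, 3 and 1 in CFAE+8+MSC, 3 and 11 in CFAE+6, and 2 and 2 in MEF. Over 10 lymphocyte markers they were 15 and 13 in CFAE+8, 29 and 28 in CFAE+8+MSC, 30 and 27 in CFAE+6, and 20 and 18 in MEF, and over 7 red blood cell markers no library had more than 6. The 7 mast cell markers had 4 and 6 counts in CFAE+8, 18 and 26 in CFAE+8+MSC, 18 and 27 in CFAE+6, and 9 and 6 in MEF. Hdc gave most of these in the cocktails, with 4 and 5, 17 and 25, and 18 and 22 counts in the same order. In MEF, Ms4a2 gave most of them, with 7 and 6 counts. Cpa3, Mcpt4, Tpsb2 and Fcer1a were not counted in any library. The 7 dendritic cell markers had 56 and 47 counts in CFAE+8, 87 and 79 in CFAE+8+MSC, 63 and 65 in CFAE+6, and 34 and 52 in MEF. In CFAE+8+MSC the dendritic cell list reached 7.14 and 7.53 CPM, above the 3.64 and 4.88 CPM of the 7 macrophage markers other than Lyz2, Cd68 and Marco. Most of that sum came from 1 gene, Zbtb46, with 56 and 49 of the counts in CFAE+8+MSC, and 29 and 44 in MEF. Flt3, Cd209a and Siglech had at most 2 counts in any library. The part of these cell types in the results was not tested. Lyz2 and Fcer1g are also expressed by some of these cells.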

How the data were processed

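Per the labels' protocols, RNA was purified with an EasyPure RNA kit, and the 8 libraries were built with NEBNext Ultra RNA reagents, which do not mark strand. The authors deposited raw counts per gene. featureCounts, Subread, DESeq2 and the build mm10 are named, without versions, in the submitters' processing notes. The aligner, counting options and annotation are not given in these sources. Each of the 8 sample columns was used. Groups and replicate numbers came from the sample titles.

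Counts were tested with edgeR 4.0.16 (R 4.3.3): filterByExpr kept 15470 of 28024 genes with any count (99.85% of counts), TMM factors scaled the libraries, and the quasi-likelihood F test was fitted to all 8 libraries with 1 mean per group (4 residual degrees of freedom). Adjusted p-values are Benjamini-Hochberg over all genes tested, with calls under 0.05. Each SE was obtained by dividing the coefficient's size by the root of F, and 95% intervals used the t distribution. The F test and the intervals used edgeR's total degrees of freedom. These add to the 4 residual ones a part estimated over all genes tested, so the spread of each gene is drawn toward that of other genes. Floors of 3 counts over the 2 libraries of a group, exact count-ratio intervals and exact binomial intervals cover counting error only. A fold against such a floor takes the counts of the other group as exact and leaves out their counting error. TPM used the deposited gene lengths. Exon overlap and shared stretches of 50 bases were read from GENCODE M21, in which 54409 of the gene identifiers were found. The fit was tested on simulated counts.

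The 10 genes and all other lists were chosen with earlier results of these data known. Named were the 10 genes, up to 4 genes of each other list with the highest mean CPM in MEF, and the 5 genes nearest in pattern to Csf1r, Lyz2 and Marco (at least 1 CPM in 1 group). Some genes named in these ways are not reported here. Fcgr1, Fcgr3, Trem2, Mrc1, Cd163 and Stab1 stand in more than 1 list. Alternatives were RLE, upper-quartile or no scaling factors, no filter, a filter of 5 CPM in 2 libraries, only the groups compared, DESeq2 1.42.0, a replicate block and leaving out each library.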

Additional observations from a re-analysis of the deposited data

How the results depend on the processing

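Depth limited the comparisons among cocktails: Csf1r, Adgre1, the C1q chains, Tyrobp and Fcer1g had at most 33 counts in any cocktail library, and 2 libraries per group leave 4 residual degrees of freedom. Scaling by RLE size factors and dropping the filter changed no direction and no call of the 60 gene changes (10 genes in 6 comparisons). DESeq2 gave an adjusted p for 53 of them, and none of these changed. A filter of 5 CPM in 2 libraries left 3, 3 and 4 of the 10 genes lower than MEF in CFAE+8, CFAE+8+MSC and CFAE+6, because fewer of the genes were tested, and it changed no call among the 30 changes it tested. With only the groups compared in the fit, 0 of the 10 genes were higher in CFAE+8+MSC than in MEF, where Marco no longer passed the filter, and 1 was higher in CFAE+8+MSC than in CFAE+6. In CFAE+6 against MEF, 1 gene (Marco) was called higher with upper-quartile factors (adjusted p = 0.0498) and with library totals alone (adjusted p = 0.0423). Library totals alone also gave Cd68 a change of 0.0316 in CFAE+8 against MEF (adjusted p = 0.877), a reversed sign of an uncalled value.

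Over all genes, DESeq2 called 2831 genes in CFAE+8+MSC against CFAE+8 (edgeR 4538), 2525 in CFAE+6 against CFAE+8 (edgeR 4116) and 885 in CFAE+8+MSC against CFAE+6 (edgeR 1621), with 1 of the 10 genes higher in the last, where it gave Marco no adjusted p. The cause was not tested.

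Leaving out each library in turn moved the count of all genes called to between 2720 and 4154 in CFAE+6 against CFAE+8 (lowest without CFAE+8 replicate 2) and to between 947 and 1531 in CFAE+8+MSC against CFAE+6 (lowest without CFAE+6 replicate 2, and 990 without CFAE+8+MSC replicate 1). In the last comparison 1 to 2 of the 10 genes were higher and 0 to 1 lower. With a library left out, 460 of these gene changes kept direction and call, 6 lost the call and 14 reversed, all uncalled. The ranges of the reversed log2 changes in CFAE+8+MSC against CFAE+8 were -0.42 to 0.52 for Csf1r and -0.72 to 4.86 for C1qc. In CFAE+6 against CFAE+8 they were -0.24 to 0.10 for Csf1r, -4.04 to 1.37 for C1qb and -1.57 to 4.36 for C1qc. In CFAE+8+MSC against CFAE+6 they were -0.36 to 0.58 for Csf1r, -0.53 to 0.63 for C1qa, -0.32 to 5.05 for C1qb and -0.32 to 1.86 for C1qc.

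Same-numbered libraries deviated together little (correlations from -0.0548 to 0.12 over 6 pairs of groups). The labels do not say whether they share more than a number, and low correlations cannot show that they do not. With the replicate number as a block, 9584 genes were called in CFAE+8 against MEF (9597 without it), and the calls of the 10 genes were the same in all 6 comparisons.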

Other observations

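Some genes used as markers of myeloid cells or of endothelium were higher in the cocktails, unlike 8 of the 10 macrophage markers. Cd33, a sialic acid receptor of myeloid cells, had 80 and 80 counts in CFAE+8, 140 and 110 in CFAE+8+MSC, 81 and 76 in CFAE+6, and 20 and 19 in MEF, with log2 changes against MEF of 1.90 ± 0.26, 2.60 ± 0.24 and 1.91 ± 0.26 (edgeR adjusted p = 2.1e-07, 1.27e-10 and 2.07e-07). It was chosen after its values were seen.

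The 8 endothelial markers summed to 62.9 and 70.7 CPM at the lowest and highest in CFAE+8, 113 and 118 CPM in CFAE+8+MSC, 95.6 and 103 CPM in CFAE+6, and 22.0 and 22.9 CPM in MEF. Esam and Kdr gave most of the sum in the cocktails. Esam averaged 36.0, 58.9 and 37.2 CPM in them in that order, and 1.17 CPM in MEF. Cdh5 and Egfl7 also had higher means in each cocktail than in MEF, and Tek had lower ones. Pecam1 and Tie1 had at most 8 counts in any library. Kdr, the VEGF receptor, changed by 0.56 ± 0.12 with CFAE+8, 1.68 ± 0.11 with CFAE+8+MSC and 1.85 ± 0.11 with CFAE+6 (edgeR adjusted p = 0.000164, 3.68e-14 and 2.52e-15). Emcn, an endothelial surface sialomucin, had 0 and 2 counts in CFAE+8, 0 in both libraries of CFAE+8+MSC and of CFAE+6, and 27 and 21 in MEF. Against the floor of 3 counts over the 2 libraries, Emcn was at least 16.9-fold lower in CFAE+8+MSC and at least 17.2-fold lower in CFAE+6. These bounds take the MEF counts as exact. Hdc, the histidine decarboxylase listed with mast cell markers and chosen after its values were seen, had 4 and 5 counts in CFAE+8, 17 and 25 in CFAE+8+MSC, 18 and 22 in CFAE+6, and 0 in both MEF libraries. The rest of that list did not share its pattern. Ms4a2 went the other way, with 7 and 6 counts in MEF and at most 1 in a cocktail library. Cma1 had at most 4 counts in any library, and Cpa3, Mcpt4, Tpsb2 and Fcer1a had none.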
